A study of Ursus arctos with 12 samples.

Results

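The genes described here are the 10 listed genes of myocellular lipid droplets and lipolysis, taken by gene symbol from a table of 30249 genes counted in brown bear (Ursus arctos) skeletal muscle. All 10 symbols were in the table, and all 10 had enough reads to be tested (at least 30 reads over the 12 libraries), as did 17290 genes in all. The libraries came from biopsies of the vastus lateralis, a thigh muscle, of 6 free-ranging bears aged 2 to 3 years. Each bear gave a winter biopsy during hibernation and a summer biopsy in its active period, which makes 6 libraries per season. The bears were wild animals captured and anaesthetised for each biopsy, and within a year the winter capture came before the summer one, so season and the order of sampling cannot be told apart. The question addressed was how these transcripts differ between the seasons in the same animals.

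Muscle fibres store triglyceride in lipid droplets, which have a core of neutral lipid under a single layer of phospholipid coated with proteins. Stored triglyceride is broken down in steps. Adipose triglyceride lipase, encoded by PNPLA2, removes the first fatty acid, hormone-sensitive lipase, encoded by LIPE, acts mainly on the resulting diacylglycerol, and monoacylglycerol lipase, encoded by MGLL, releases the last fatty acid and glycerol. ABHD5 is the protein co-activator of adipose triglyceride lipase, and the small proteins G0S2 and HILPDA inhibit that enzyme. The perilipins coat the droplet and govern the access of lipases to it. PLIN2 and PLIN3 are found in most tissues, PLIN4 mainly in adipose tissue and striated muscle, and PLIN5 in tissues that oxidise much fat, where it also links droplets to mitochondria. In hibernation bears live on stored fat for months without eating.

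Depth ran from 20191068 to 27283155 counted reads per summer library and from 16742406 to 32140160 per winter library. Markers of skeletal muscle fibres (10 genes, among them CKM, TTN and ACTA1) summed to 118100 to 193600 CPM (TMM-normalised reads of a gene relative to the size of its library) in summer and to 123700 to 163300 in winter. The labelled tissue therefore showed its defining transcripts in every library. The quasi-likelihood test of edgeR set winter against summer with season as the only term, so it did not use the pairing by bear. Each log2 fold change (log2FC, winter over summer) is given with its standard error (SE) and a Benjamini-Hochberg adjusted p over all tested genes. A gene was called where that p was below 0.05, which was so for 39.5% of the tested genes, with 19.6% above and 19.9% below their summer level. Of the 10 fibre markers, 2 (TTN and NEB) were called higher and 3 (ACTA1, MB and ACTN2) lower in winter. Their sum, in which CKM was the largest part, does not show these changes of single markers.

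Of the 10 genes, 3 were called. LIPE and ABHD5 were lower in winter, PLIN5 was higher, and the other 7, PNPLA2, G0S2, HILPDA, MGLL, PLIN2, PLIN3 and PLIN4, were not called. The median log2FC over the 10 was 0.02, beside −0.0021 over all tested genes. All winter libraries lay below all summer libraries for 1 of the 10, ABHD5, as for 8.21% of the tested genes, and none of the 10 showed the opposite, as 9.12% did, which makes 17.3% without overlap in either direction. ABHD5 and LIPE were lower in every bear, where 19.0% of genes were lower, 18.4% higher and 37.3% of one direction in every bear. These counts are close to or below the shares of all genes, so the genes are described singly. The same 3 were called in a fit with each bear as a replicate block (40.8% of all genes called), with DESeq2 (41.4%) and with limma voom (39.7%), while library totals in place of TMM (37.6%) left LIPE and ABHD5.

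**Figure D1:**
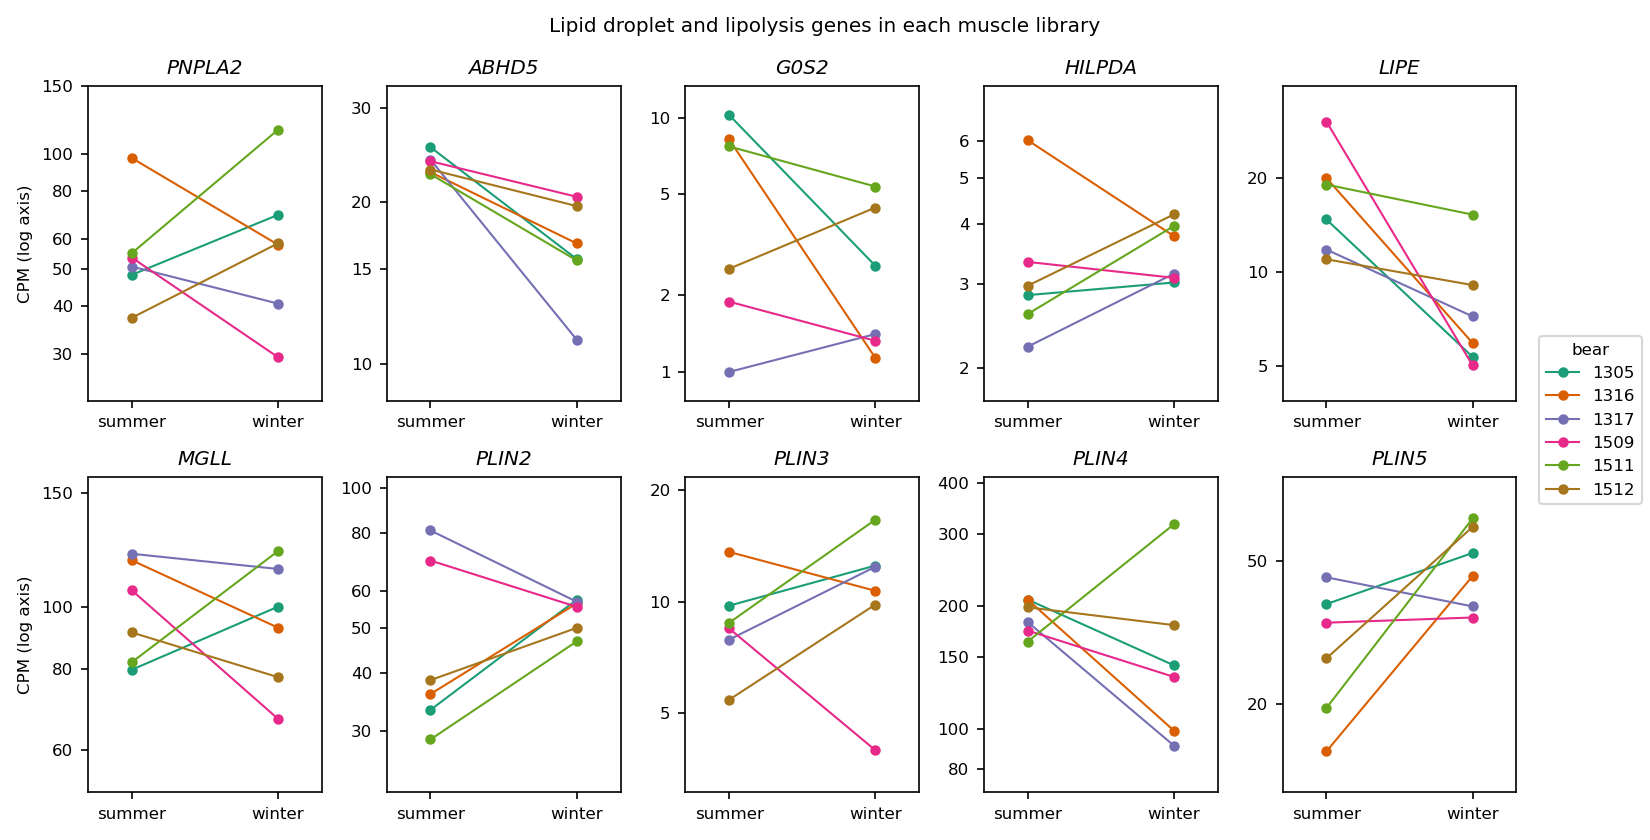
Levels of the 10 genes in CPM (log axis) in the summer and winter library of each of 6 bears, joined by a line per bear. All 6 lines fall for ABHD5 and for LIPE, 5 of 6 rise for PLIN5, and 3 rise and 3 fall for PNPLA2.

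The lipase that opens the pathway did not pass the test. PNPLA2 lay at 37.3, 52.1 and 97.4 CPM (lowest, median and highest library) in summer and at 29.4, 58.1 and 115.5 CPM in winter. The winter range enclosed the summer range, and the gene was higher in winter in bears 1305, 1511 and 1512 and lower in bears 1316, 1317 and 1509. Its means were 57.0 ± 20.7 CPM in summer and 61.8 ± 29.9 CPM in winter (SD, n = 6 bears). The log2FC was 0.12 (SE 0.29, adjusted p = 0.775), with a 95% interval of −0.50 to 0.74, which leaves room for a moderate difference in either direction.

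ABHD5, the co-activator of that lipase, was lower in winter in all 6 bears. It lay at 22.6, 23.4 and 25.3 CPM in summer (lowest, median and highest) and at 11.1, 16.2 and 20.5 CPM in winter. The summer libraries thus lay within a narrow band, and every winter library lay below all of them. The mean fell from 23.6 ± 1.04 to 16.5 ± 3.36 CPM (SD, n = 6 bears), or a log2FC of −0.51 (SE 0.13, adjusted p = 0.00686). Single bears lay between −1.11, in bear 1317, and −0.22, in bear 1509, on the log2 scale. ABHD5 was called under every alternative run, with adjusted p from 0.000941 to 0.0304.

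The inhibitors of adipose triglyceride lipase were both counted at low levels and neither was called. G0S2, with 23 to 281 reads per library, lay at 0.999, 5.12 and 10.2 CPM in summer and at 1.13, 2.01 and 5.36 CPM in winter (lowest, median and highest). In summer the libraries formed no common level, since bears 1305, 1316 and 1511 lay at 7.70 to 10.2 CPM and bears 1317, 1509 and 1512 at 0.999 to 2.54 CPM. The winter value was lower in 4 of 6 bears, and the log2FC of −0.96 (SE 0.55, adjusted p = 0.184) was within the spread between bears. HILPDA, with 51 to 129 reads per library, lay at 2.21, 2.91 and 6.01 CPM in summer and at 3.02, 3.47 and 4.20 CPM in winter. The log2FC of HILPDA was 0.09 (SE 0.23, adjusted p = 0.773), and it was higher in winter in 4 of 6 bears.

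LIPE, which encodes hormone-sensitive lipase, had the largest called difference among the 10. It lay at 10.99, 16.9 and 30.4 CPM in summer and at 5.02, 6.57 and 15.3 CPM in winter (lowest, median and highest). It was lower in winter in 6 of 6 bears, and 5 of 6 winter libraries lay below the lowest summer library. The exception was the winter library of bear 1511 at 15.3 CPM. The mean fell from 17.8 ± 7.16 to 7.98 ± 3.88 CPM (SD, n = 6 bears), or a log2FC of −1.16 (SE 0.30, adjusted p = 0.0077) and a summer level 2.24-fold that of winter. Single bears ranged from −2.58 in bear 1509 to −0.27 in bear 1512. LIPE was called under every alternative run, with adjusted p from 9.04e-05 to 0.0344.

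MGLL, which encodes the lipase of the last step, lay at 79.9, 98.7 and 121 CPM in summer and at 67.0, 96.5 and 122 CPM in winter. The ranges of the seasons covered each other almost fully. Its log2FC was −0.06 (SE 0.16, adjusted p = 0.79) with a 95% interval of −0.39 to 0.28, and it was lower in winter in 4 of 6 bears.

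**Figure D2:**
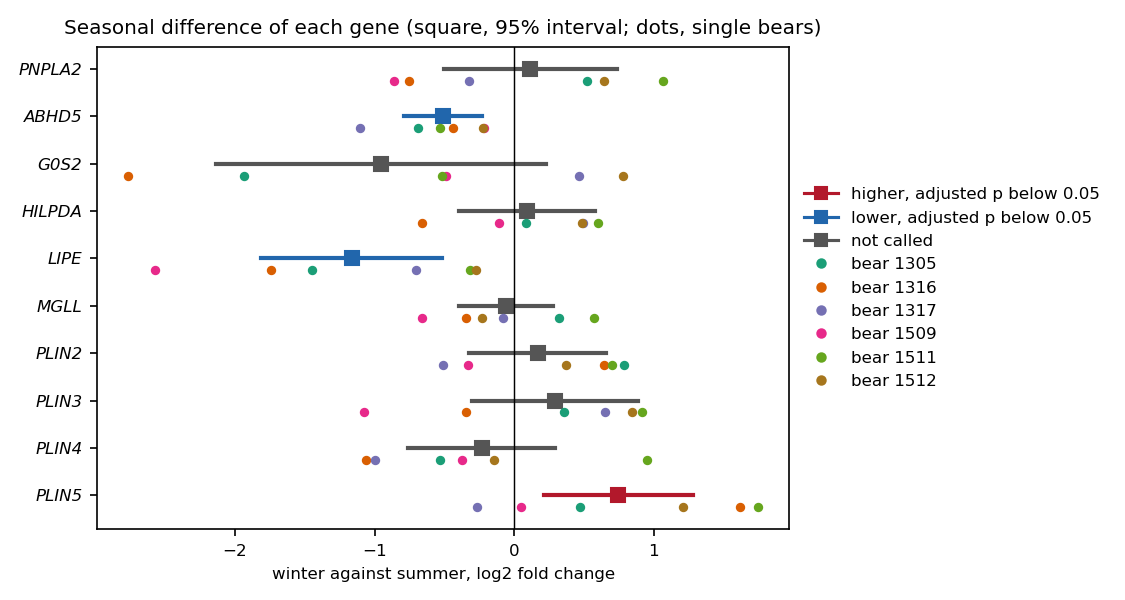
Log2FC of winter against summer for the 10 genes, as the fitted value (square) with its 95% interval (line) and the difference of each of 6 bears (dots). The intervals of ABHD5, LIPE and PLIN5 do not reach 0.

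Among the droplet coats, PLIN5 was higher in winter. It lay at 14.7, 30.2 and 45.0 CPM in summer and at 34.8, 49.0 and 65.6 CPM in winter (lowest, median and highest), and 4 of 6 winter libraries lay above the highest summer library. The mean rose from 29.6 ± 11.4 to 49.6 ± 12.7 CPM (SD, n = 6 bears), or a log2FC of 0.75 (SE 0.25, adjusted p = 0.0284), or 1.68-fold. PLIN5 was higher in 5 of 6 bears, by 1.75 in bear 1511 and 1.62 in bear 1316 on the log2 scale, while bear 1317 stood at −0.27 and bear 1509 at 0.05. The call was lost with library totals in place of TMM scaling (adjusted p = 0.0731) and without bear 1316 (0.0555), 1511 (0.11) or 1512 (0.0999), and its adjusted p ran from 0.00312 to 0.11 over the alternatives.

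PLIN2, the coat of most cell types, was not called. Its summer libraries ran from 28.7 to 80.9 CPM with a median of 37.2, while its winter libraries lay within 46.7 to 57.4 CPM with a median of 55.9. All 6 winter libraries thus lay inside the summer range. The bears with the highest summer levels, 1317 at 80.9 CPM and 1509 at 69.7 CPM, were the ones that were lower in winter, and the other 4 were higher. The log2FC was 0.17 (SE 0.23, adjusted p = 0.582).

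PLIN3, a coat protein that moves between cytosol and droplets, lay at 5.44, 8.63 and 13.6 CPM in summer and at 3.97, 11.6 and 16.7 CPM in winter. It was higher in winter in 4 of 6 bears, at or a log2FC of 0.29 (SE 0.28, adjusted p = 0.421). PLIN4 lay at 164, 191 and 207 CPM in summer and at 91.3, 139 and 316.5 CPM in winter (lowest, median and highest). Its summer libraries were close together, and 4 of 6 winter libraries lay below the lowest of them, but bear 1511 lay above the highest. PLIN4 was lower in 5 of 6 bears and was not called (log2FC −0.23, SE 0.25, adjusted p = 0.472). Without bear 1511 it was called, at −0.58 (adjusted p = 0.0191), so that bear alone decided the call.

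PLIN4 and PLIN5 are neighbouring protein-coding entries in the gene table of the assembly UrsArc2.0, with HDGFL2 before PLIN4 and LRG1 after PLIN5. The counts themselves were made on the earlier assembly ASM358476v1. The fitted values of these neighbours lay on opposite sides of 0, at −0.23 for PLIN4 and 0.75 for PLIN5. Bear 1316 stood at −1.06 for PLIN4 and 1.62 for PLIN5, and bear 1511 at 0.95 and 1.75.

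Ratios of a pair of genes within a library do not depend on how libraries are scaled, so 8 ratios were compared between seasons by an exact sign-flip permutation test over the 6 bears, two-sided. The smallest p this test can give is 0.03125. The ratio of LIPE to PNPLA2 was lower in winter in 6 of 6 bears, by 1.23 ± 0.58 (SD, n = 6 bears) on the log2 scale (ratio difference −1.23, from −1.97 to −0.39 in single bears). Its exact p was 0.03125, the smallest possible, and 0.25 after Benjamini-Hochberg adjustment over the 8 ratios. A lone ratio at the smallest p cannot go below 0.25 among 8, so missing the threshold was set by the design and says nothing for or against a difference. PLIN5 over PLIN2 was higher in 5 of 6 bears (log2 difference 0.53 ± 0.52, exact p = 0.0938, adjusted 0.25), and PLIN4 over PLIN2 was lower in 5 of 6 (−0.64 ± 0.75, exact p = 0.0938, adjusted 0.25). For ABHD5 over PNPLA2 the log2 difference was −0.59 ± 0.88, lower in 4 of 6 bears (exact p = 0.188, adjusted 0.375), and bears 1316 and 1509 stood at 0.31 and 0.64. The ratios of G0S2, HILPDA and MGLL to PNPLA2 and of PLIN3 to PLIN2 had exact p values of 0.25 to 0.875, each with 3 of 6 bears higher in winter.

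**Figure D3:**
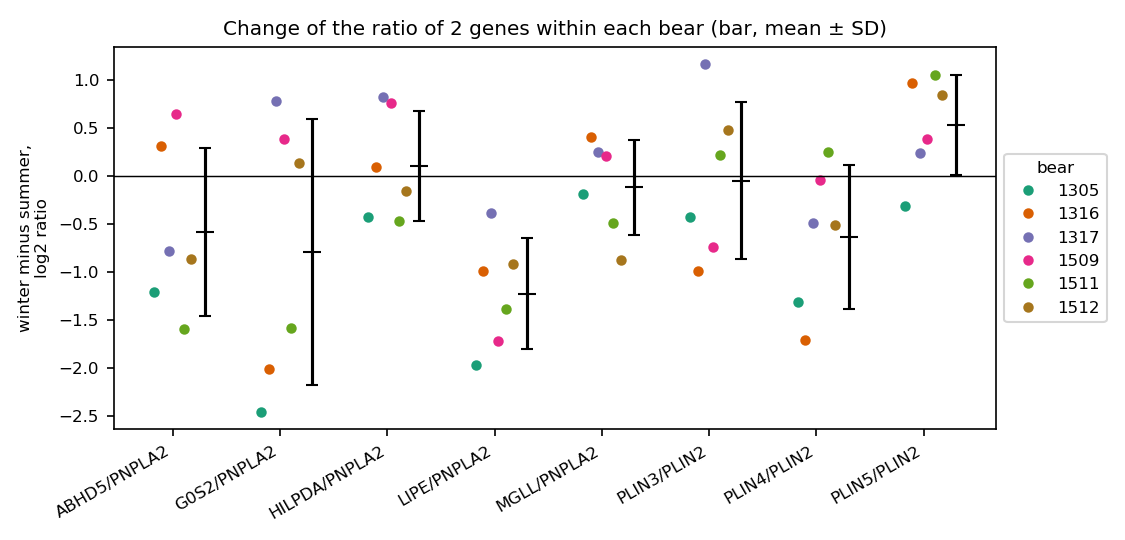
Winter minus summer difference of the log2 ratio of 2 genes in each of 6 bears (dots) with mean and SD (bar), for 8 ratios. All 6 bears lie below 0 for LIPE over PNPLA2, and the other ratios have bears on both sides.

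The adipocyte content of a biopsy can bear on these genes, several of which are abundant in fat cells. ADIPOQ, which encodes the adipocyte hormone adiponectin, lay at 348 CPM in the summer library of bear 1316, at 148 CPM in the winter library of bear 1511 and at 5.67 to 41.4 CPM in the other 10 libraries. PLIN1, the perilipin of adipocytes, was highest in the same libraries, at 74.4 and 26.4 CPM, and lay at 1.62 to 8.56 CPM in the others. LEP, which encodes leptin, had 0 to 19 reads in a library. Of the 12 adipocyte markers, 3 (FABP4, AQP7 and THRSP) were lower and 1, LEP, was higher in winter, beside 19.9% and 19.6% of all tested genes. For LEP the adjusted p was 0.0366 and ran from 0.0211 to 0.146 over the alternatives. Their summed level was 562 to 1812 CPM in summer and 273 to 538 CPM in winter, but FABP4 and AQP7, which endothelium also expresses, made up 62.6 to 96.4% of it. The other 10 markers summed to 21.0 to 663 CPM in summer and 11.04 to 201 CPM in winter.

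PNPLA2 and PLIN3 had their highest levels in the same libraries as ADIPOQ, at 115.5 and 16.7 CPM in the winter library of bear 1511 and at 97.4 and 13.6 CPM in the summer library of bear 1316. The highest HILPDA level, 6.01 CPM, was in that summer library, and the highest PLIN4 and MGLL levels, 316.5 and 122 CPM, in that winter library. MGLL was nearly as high, at 121 CPM, in the summer library of bear 1317, where ADIPOQ lay at 25.6 CPM. LIPE had its highest winter level, 15.3 CPM, in the winter library of bear 1511, but its highest level of all, 30.4 CPM, in the summer library of bear 1509. PLIN5 was lowest in the summer library of bear 1316 (14.7 CPM) and highest in the winter library of bear 1511 (65.6 CPM). The part of adipocyte content in these values was not tested. Without both libraries, LIPE had a log2FC of −1.41 (adjusted p = 0.00206) and ABHD5 one of −0.50 (0.0178), as large as or close to those with all libraries. PLIN5 stood at 0.52 (adjusted p = 0.08) and was no longer called, and PLIN4 at −0.51 (0.0297) was.

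**Figure D4:**
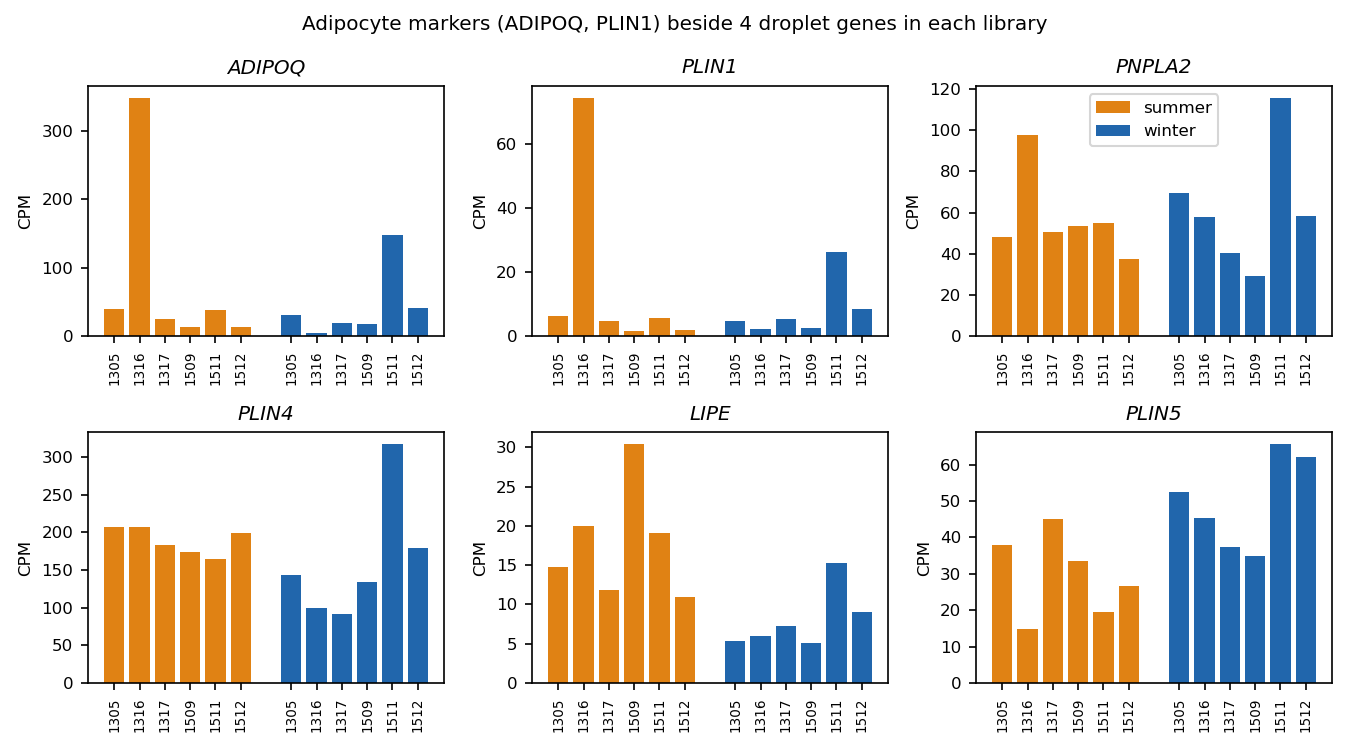
CPM of the adipocyte markers ADIPOQ and PLIN1 and of PNPLA2, PLIN4, LIPE and PLIN5 in each of the 12 libraries, as bars from 0, with summer bears on the left and winter bears on the right. ADIPOQ and PLIN1 stand out in the summer library of bear 1316 and the winter library of bear 1511.

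Markers of several other cell types also moved with the season, beside the 19.9% of all tested genes that were called lower. Lower in winter were 6 of 8 endothelial markers (summed 638 to 966 CPM in summer and 428 to 496 CPM in winter), 5 of 7 macrophage markers (58.3 to 111 and 37.7 to 69.5 CPM), 6 of 8 fibroblast markers (4339 to 11530 and 301 to 1868 CPM) and 3 of 8 markers of smooth muscle and pericytes (517 to 647 and 286 to 365 CPM). Within the fibroblast sum, COL3A1, COL1A2 and COL1A1 had the largest summer means (3169, 1907 and 1437 CPM) and log2FCs of −4.17, −3.74 and −4.59. The fibroblast markers PDGFRA (−0.49, adjusted p = 0.0772) and DCN (−0.75, 0.0848) were not called. Of 6 blood cell markers 1 was lower, near the share of all genes. The summed blood markers lay at 10.97 to 78.2 CPM in summer (median 37.6) and at 38.8 to 67.8 CPM in winter (median 50.5). A further endothelial marker, CLDN5, was called higher (log2FC 0.81, adjusted p = 0.0295). The part of these cells in the values of LIPE and ABHD5 was not tested. In bulk tissue, fewer cells of a type and less RNA per cell cannot be told apart.

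Around these 10 genes, the enzymes that make triglyceride had mostly lower transcripts in winter. Of 14 tested genes of triglyceride synthesis, 8 were lower and 1 was higher, with a median log2FC of −0.45, where 19.9% of all tested genes were lower and 19.6% higher. The 8 were GPAT3 and GPAT4 (the acyl-CoA step onto glycerol-3-phosphate), AGPAT1, AGPAT3, AGPAT4 and AGPAT5 (the next acylation), and DGAT1 and DGAT2 (the last). GPAT3 fell from 53.0 ± 9.23 to 16.3 ± 3.80 CPM (SD, n = 6 bears) without overlap between seasons, or a log2FC of −1.70 (SE 0.15, adjusted p = 7.24e-06). AGPAT4 stood at −1.47 (SE 0.23, adjusted p = 0.000257), with 14 to 88 reads per library.

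DGAT2 had the largest change of the list, at −4.31 (SE 1.03, adjusted p = 0.00468) and lower in 6 of 6 bears, with 254 CPM in the summer library of bear 1316 against a summer median of 13.6 CPM. Without that library its log2FC was −2.14 (adjusted p = 0.00622), and without bear 1316 −1.92 (0.00995). ADIPOQ was also highest in that summer library, at 348 CPM, and the part of adipocyte content in the DGAT2 values was not tested. The gene called higher was GPAT2, a mitochondrial acyltransferase, which rose from 0.577 ± 0.18 to 1.49 ± 0.37 CPM (SD, n = 6 bears; log2FC 1.36, adjusted p = 0.00138), on 9 to 47 reads per library. GPAM and MOGAT1 also lay above 0, at 0.45 (adjusted p = 0.134) and 0.66 (0.0714), and were not called. Over the alternatives their adjusted p spanned 0.0476 to 0.44 and 0.000826 to 0.204. LPIN1, LPIN2 and LPIN3, which encode the phosphatidate phosphatases, were not called.

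**Figure D5:**
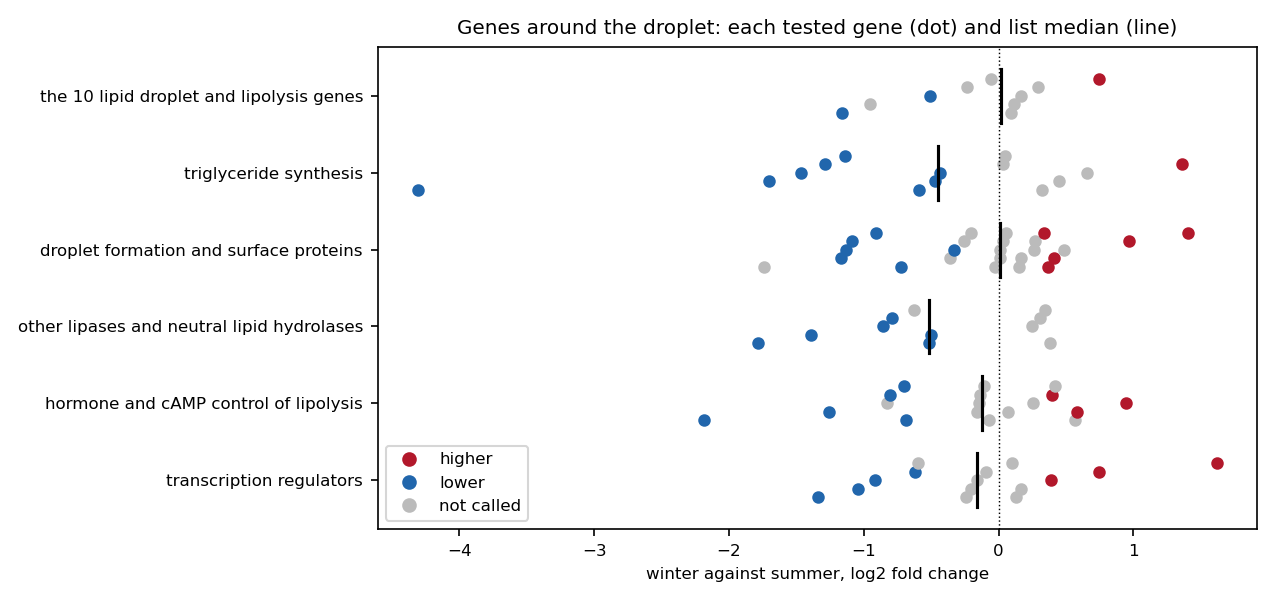
Log2FC of winter against summer of each tested gene (dots, coloured by call at an adjusted p below 0.05) in the 10 genes and in 5 lists of related genes, with the median of each list (line). The medians of triglyceride synthesis and of other lipases lie at −0.45 and −0.51.

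Of 11 other lipases and neutral lipid hydrolases, 6 were lower in winter and 5 were not called, with a median log2FC of −0.51, beside the 19.9% of all tested genes that were lower. LPL, the lipase that frees fatty acids from circulating lipoproteins, fell from 379 ± 157 to 110.0 ± 22.7 CPM (SD, n = 6 bears; log2FC −1.78, adjusted p = 0.000113). CES1, a carboxylesterase that hydrolyses lipid esters, fell from 289 ± 86.2 to 110.1 ± 36.5 CPM (−1.39, adjusted p = 0.000595). Neither overlapped between the seasons. ABHD6, a monoacylglycerol hydrolase, stood at −0.86 (adjusted p = 0.0433) and fell in 6 of 6 bears, and the alternatives gave it an adjusted p of 0.0105 to 0.172. It was not called without bear 1305 (0.0918), 1316 (0.0599), 1317 (0.172) or 1511 (0.0526), without the winter library of bear 1509 (0.073), or with limma voom (0.0723).

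Of 25 genes of droplet formation and surface, 5 were higher and 6 lower, with a median log2FC of 0.01. These counts are near the shares of all tested genes, 19.6% higher and 19.9% lower. FITM1, a muscle protein of the endoplasmic reticulum that promotes droplet formation, fell from 65.8 ± 18.8 to 30.1 ± 4.53 CPM (log2FC −1.13, adjusted p = 0.000308). METTL7A, a methyltransferase-like protein found on droplets, fell from 21.2 ± 4.61 to 9.48 ± 1.61 CPM (−1.16, adjusted p = 0.000113). Neither of them overlapped between the seasons. VPS13C rose from 64.6 ± 9.91 to 126.5 ± 23.7 CPM (log2FC 0.97, adjusted p = 0.000115), also without overlap. Its adjusted p was at most 0.00133 over the alternatives. Also called were RAB18, AUP1 and TMEM159, which were higher, and ACSL1, LDAH, SNAP23 and SQLE, which were lower. CIDEB, of a family that fuses and remodels droplets, rose at 1.41 (adjusted p = 0.0356), but on only 2 to 17 reads per library and an adjusted p that spanned 0.0169 to 0.13 over the alternatives. It was not called without bear 1305 (0.0588), 1316 (0.054), 1317 (0.08), 1511 (0.112) or 1512 (0.056). The call was also lost with limma voom (0.0865), in DESeq2 with the replicate block (0.101), without the summer library of bear 1316 (0.0596), and without that library and the winter library of bear 1511 (0.13). BSCL2, which encodes seipin, a protein of droplet assembly, was not called at −0.03 (SE 0.09, adjusted p = 0.828).

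Hormones reach lipolysis through receptors and cyclic AMP, and of 18 tested genes of this control 3 were higher and 5 lower in winter, with a median log2FC of −0.12, again near the 39.5% of all tested genes called. PRKAR2A, a regulatory subunit of protein kinase A, rose from 277 ± 70.7 to 532 ± 144 CPM (log2FC 0.95, adjusted p = 0.0036), in 6 of 6 bears. The adrenergic receptors ADRB1 and ADRA2A were lower in 5 of 6 bears each, at −2.19 (adjusted p = 0.0178) and −1.26 (0.0474), on 0 to 13 and 1 to 32 reads per library. ADRB1 was not called without bear 1317 (0.0695) or 1512 (0.0595), or in DESeq2 with the replicate block (0.0645). ADRA2A was not called without bear 1305 (0.189), 1316 (0.086), 1317 (0.106), 1509 (0.0777) or 1512 (0.0898). It also lost its call with no filter on low counts (0.0571), without the summer library of bear 1316 (0.0583) and without the winter library of bear 1509 (0.0597). Their adjusted p spanned 0.00662 to 0.0695 and 0.00822 to 0.189 over the alternatives.

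Of 15 transcription regulators known to act on lipid droplet or fatty acid genes, 3 were higher and 4 lower in winter, with a median log2FC of −0.16, counts likewise near the 19.6% and 19.9% of all tested genes. PPARA, a fatty acid sensing nuclear receptor, fell from 126 ± 28.8 to 60.98 ± 13.9 CPM (SD, n = 6 bears), without overlap and in 6 of 6 bears (log2FC −1.05, SE 0.18, adjusted p = 0.000482). KLF15, a factor of fasting metabolism, stood at −1.34 (SE 0.31, adjusted p = 0.00394), lower in 6 of 6 bears. SREBF1, which drives lipid synthesis genes, was higher in 5 of 6 bears, at 1.62 (SE 0.45, adjusted p = 0.0114). These values come from the same libraries and the same test and were not related to the 10 genes by any further test.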

How the data were processed

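RNA of 12 muscle biopsies, 6 per season, was measured by stranded poly-A RNA-seq. The authors aligned single reads with TopHat2 2.1.1 to ASM358476v1 and deposited raw counts per gene made by featureCounts 1.6.2 with strand, neither filtered nor normalized. How reads that fit several places were counted is not given in the sources used here, which can touch genes with repeats or near-identical copies.

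A gene needed at least 30 reads summed over the libraries to be tested. R 4.3.3 with edgeR 4.0.16 (TMM, glmQLFit, glmQLFTest, season as the only term) tested all 17290 genes. The standard error is the log2 fold change over the square root of F. Ratios used log2 CPM with a prior count of 2. Alternatives were the bear as a replicate block, DESeq2 1.42.0, limma 3.58.1 voom, other scaling and filters, and each bear left out. Bear numbers pair the libraries, since per the methods each bear was biopsied in winter and summer. Over genes, a bear's departures from the means of the seasons correlated at 0.0903 to 0.344, with a median of 0.236. Those of unlike bears correlated at −0.214 to 0.142, with a median of −0.0634, so the ranges overlapped. The lowest chi-square per gene between libraries of a season was 39.0, so none is a copy.

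On simulated data for winter against summer in 6 bears, with 17290 genes of which 200 were changed, edgeR found 63% of 2-fold and 95% of 4-fold changes and called 7 unchanged genes. Far fewer genes were changed there than the 39.5% called in the data. The simulation held no effect of the bear, and its changed genes were drawn from those with more reads. These shares therefore do not say how many true changes were found in the data. The 10 genes and the lists were chosen with earlier results of these data known. Named were the 10 genes, the 3 called genes with the largest change in each list, ADIPOQ, PLIN1 and LEP, and for PNPLA2, G0S2, PLIN2 and PLIN5 the 3 genes with the closest differences over the bears. CLDN5, GPAT2, GPAM, MOGAT1, THRSP, LPIN1 to LPIN3, BSCL2 and the other called enzymes of triglyceride synthesis were named after their values were seen. So were the called fibre markers, the named fibroblast markers, VPS13C and the other called genes of droplet formation and surface. FABP4 and AQP7 were set apart from the other adipocyte markers after the data were seen. The libraries do not carry a label for sequencing lane, so a lane effect was not tested. Levels of different genes were not compared, since transcript lengths were not used here.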

Additional observations from a re-analysis of the deposited data

Results flagged for a closer look

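PLIN3 in the winter library of bear 1509 lay at 2.02 log2 CPM, while the other winter libraries lay at 3.31 to 4.07. Its gap to the nearest of them was 0.63 of the range of the 6 winter libraries, above the critical value of Dixon's test for 6 samples. It was the only such library in 20 groups of a gene and a season, and chance alone gives about 1 in 20 groups. Without that library the log2 fold change of PLIN3 was 0.47 (adjusted p = 0.0842) in edgeR, against 0.29 (0.421) with it.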

How the results depend on the processing

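Fitted with each bear as its own replicate block, edgeR gave a log2FC of −0.53 for ABHD5, −1.17 for LIPE and 0.80 for PLIN5, and the same 3 of the 10 genes stayed called. LIPE and ABHD5 were called lower under every alternative run. Of the 10 genes, 1 was called higher, but 0 with library totals (PLIN5 then at 0.64) and 0 without the summer library of bear 1316 and the winter library of bear 1511, and 0 to 1 with a bear left out. In these settings, among them without bear 1316, 1511 or 1512, PLIN5 stayed above 0 (0.52 to 0.65) but was not called.

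Genes of triglyceride synthesis called higher numbered 2 with the replicate block, 2 with DESeq2, 3 with DESeq2 and the block, 2 with limma voom and 1 to 2 with a bear left out, against 1. Droplet formation genes called higher numbered 3 with library totals and 2 to 5 with a bear left out, against 5. Of the other lipases, 1 was called higher without the summer library of bear 1316, also without the winter library of bear 1511 besides, and 0 to 1 with a bear left out. Of the hormone and cyclic AMP genes, 5 were called higher without both libraries, against 3, and 3 to 5 lower with a bear left out.

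Directions that turned were all of genes or ratios that were not called. With a bear left out, PNPLA2 ranged from −0.166 (without bear 1511) to 0.358, HILPDA from −0.0037 to 0.325, MGLL from −0.189 to 0.0557, PLIN1 from −1.9 to 1.19 and ADIPOQ from −1.92 to 0.97. The log2 ratios ranged from −0.0432 to 0.214 for HILPDA over PNPLA2, from −0.225 to 0.0311 for MGLL over PNPLA2 and from −0.295 to 0.135 for PLIN3 over PLIN2. MGLL stood at 0.0256 without the winter library of bear 1509. PLIN1 turned to 0.215 with the replicate block, 0.3 with DESeq2 and the block, 0.993 without the summer library of bear 1316 and 0.191 without both libraries, and ADIPOQ to 0.00116, 0.0235 and 0.734 under the first 3 of these. The cause of these changes was not tested. The 3 alternatives that leave out single libraries were chosen after seeing the data. Low counts limit several genes, among them G0S2, HILPDA, CIDEB, ADRB1, ADRA2A, GPAT2, AGPAT4, ABHD6 and LEP.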

Other observations

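The spread between bears changed with the season in opposite directions for different genes, which is given here without a test. On the log2 CPM scale the SD of ABHD5 was 0.06 in summer and 0.31 in winter, that of PLIN4 0.14 and 0.65, and that of PLIN2 0.61 in summer and 0.12 in winter (n = 6 bears each). For PLIN4 the highest winter library was that of bear 1511, at 316.5 CPM. The other winter libraries still ran from 91.3 to 179.6 CPM, where the summer libraries ran from 164 to 207 CPM.

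The genes whose 6 differences between winter and summer lay closest to those of a member of the group were sought among 10335 other named genes, by the root mean square distance over the 6 bears in log2 units. For PNPLA2 they were PPM1M (0.27), CRAT (0.30) and PLA2G7 (0.34), where the median gene lay at 0.91. CRAT encodes carnitine acetyltransferase and stood at a log2 fold change of 0.14 (adjusted p = 0.594). For PLIN2 they were ZFYVE1 (0.21), RBM24 (0.21) and ATG13 (0.22), with a median of 0.75 over all. For PLIN5 they were CSNK1G1 (0.33), RSPO3 (0.38) and PHLDA3 (0.42), with a median of 1.19. For G0S2 they were LMOD1 (0.69), LAMTOR2 (0.77) and LNX1 (0.77), with a median of 1.52. With 6 bears and this many genes close matches are found by the number of genes alone, and these are given as a description.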
